A study of Penicillium oxalicum with 6 samples.

Results

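The genes POX_c04500 to POX_c04530 are 31 of the 9822 genes listed for Penicillium oxalicum, a filamentous fungus that secretes enzymes able to digest raw starch. They were chosen by their locus tags, to hold a block of 13 genes, POX_c04511 to POX_c04523, whose transcripts were rare in the PoxKu70 strain and abundant in the mutant, together with the 18 genes numbered on either side (11 before it and 7 after it). RNA was sequenced from mycelium of a POX_a00954 mutant (3 libraries) and of PoxKu70 (3 libraries), whose genotype is labelled WT. Spores for all 6 libraries came from plates kept for 4 days at 28 °C, and the mycelium had spent 24 h in glucose medium before 24 h in medium with raw starch as its sole source of carbon. POX_a00954 is a transcription factor gene named in the title of the study, and PoxKu70 is named after Ku70, which takes part in the joining of DNA ends. Fungal strains that lack Ku70 are common starting strains for replacing genes. The labels do not say which part of POX_a00954 was altered, whether the mutant is a single clone, whether PoxKu70 and the mutant share the Ku70 change, or whether each library stands for its own culture. The spread given here is therefore that between libraries and may be technical.

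In filamentous fungi, genes that act in the same pathway often lie side by side, above all those that make secondary metabolites. Such clusters can be silent in a given culture and be transcribed together when a regulator or the state of the chromatin changes. Neighbouring genes that change together are therefore commonly examined as a unit, with attention to where the unit begins and ends. No product is listed for any of these 31 genes in the sources at hand, so they are described without functions. All 31 matched RefSeq locus tags on chromosome III, where they are adjoining protein-coding genes in the order of their numbers. In RefSeq, a single tRNA gene lies between POX_c04506 and POX_c04507, a pair of rRNA genes between POX_c04508 and POX_c04509, and another pair between POX_c04520 and POX_c04521, inside the block.

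Levels are FPKM as deposited, a fragment number scaled to the length of the transcript and to how many fragments were mapped in that library. FPKM is a level per length, so different genes can be set side by side. The FPKM sum of a library ran from 1338218 to 1409899 in the mutant and from 1025654 to 1076733 in PoxKu70. Relative depth, read from the steps between low values and set to 1 in mutant replicate 1, was 1.4 and 1.15 in mutant replicates 2 and 3 and 1.79, 1.89 and 1.56 in PoxKu70 replicates 1 to 3. These are estimates from few low values. The level of POX_a00954 was 283, 275 and 441 FPKM in mutant replicates 1 to 3, against 716, 679 and 842 FPKM in PoxKu70 replicates 1 to 3, so that its transcript was lower in the mutant but not absent. The 8448 genes whose mean reached 1 FPKM were tested with limma on log2(FPKM + 1), and 60.5% passed a Benjamini-Hochberg adjusted p of 0.05, 30.5% higher and 30% lower in the mutant. With every library scaled to the same FPKM sum (TPM), 1649 genes were higher and 3915 lower, against 2575 higher and 2532 lower as deposited, and the log2 changes of tested genes then had a median of -0.36, against -0.0089 as deposited. Differences between the strains chose these genes. They are given below as description, with limma's calls from the fit over all genes counted beside these shares and nothing concluded from them.

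Summed over its 13 genes, the block stood at 2164, 2744 and 3330 FPKM in mutant replicates 1 to 3, against 28.2, 37.1 and 33.5 FPKM in PoxKu70 replicates 1 to 3. The lowest mutant library thus lay far above the highest PoxKu70 library. The mean sum was 2746 ± 583 FPKM in the mutant and 32.9 ± 4.5 FPKM in PoxKu70 (SD, n = 3 each), 83.4-fold higher in the mutant. The block made up 0.158% to 0.236% of the FPKM sum of a mutant library and 0.00275% to 0.00345% of that of a PoxKu70 library. In bulk mycelium, more hyphae transcribing a gene and more transcript per hypha cannot be told apart.

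Of the 13 genes, 12 reached the mean of 1 FPKM and were tested, and all 12 were called higher in the mutant, as were 30.5% of all tested genes. In all 12 the 3 mutant libraries also lay above the 3 PoxKu70 libraries, as they did for 34.4% of all tested genes. Of these 12, 7 averaged below 1 FPKM in PoxKu70 and reached the filter through their mutant values, and all were chosen for this difference, so nothing is read from the count. The tested genes differed by a median of 4.73 on the log2(FPKM + 1) scale, mutant minus PoxKu70, against -0.0089 over all tested genes. Their plain ratios of mean FPKM ran from 5.08 to 181, with a median of 57.4. A log2 difference of at least 3 was reached by 11 of the 12, and by 2.45% of all tested genes.

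**Figure D1:**
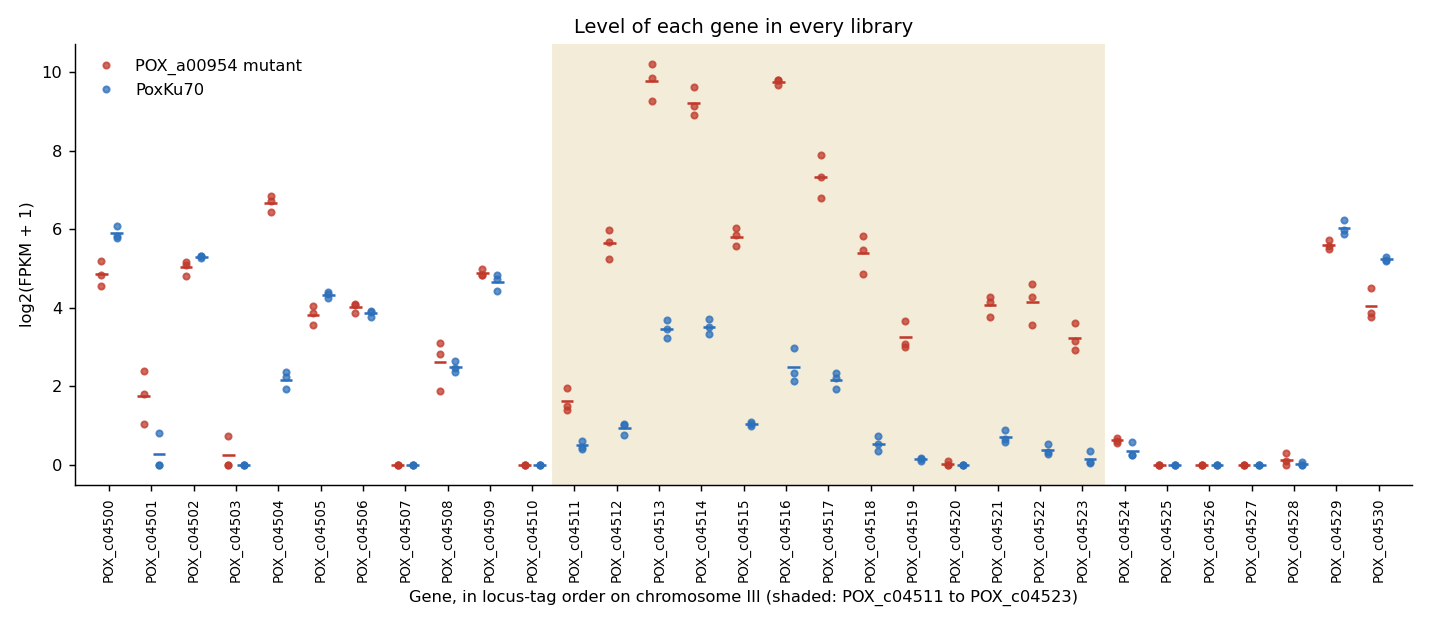
log2(FPKM + 1) of the 31 genes in locus-tag order, with 1 point per library and a short line at the mean of each strain (left of each pair the mutant, right PoxKu70). All 3 mutant libraries lie above all 3 PoxKu70 libraries at 12 of the 13 shaded genes, while POX_c04520 within the block and 5 genes just after it lie at or near 0 in both strains.

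The most abundant transcripts of the block in the mutant came from POX_c04513, POX_c04516 and POX_c04514, which lie close together in its first part. POX_c04513 had 612, 923 and 1180 FPKM in mutant replicates 1 to 3, against 8.32, 11.96 and 10.02 FPKM in PoxKu70 replicates 1 to 3. Its mean was 89.6-fold higher in the mutant, with a log2 difference of 6.31 (SE 0.24). It ranked 245th of the 9822 listed genes in the mutant and 6736th in PoxKu70. The groups of libraries did not overlap.

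POX_c04516 showed the widest difference of the block. It had 809, 895 and 885 FPKM in mutant replicates 1 to 3, against 3.4, 6.82 and 4.1 FPKM in PoxKu70 replicates 1 to 3. Its mean was 863 ± 47 FPKM in the mutant and 4.77 ± 1.81 FPKM in PoxKu70 (SD, n = 3 each), a ratio of 181 and a log2 difference of 7.27 (SE 0.21). The mutant libraries lay close to each other here, unlike at most other genes of the block.

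POX_c04514 had 481, 561 and 783 FPKM in mutant replicates 1 to 3, against 9.07, 10.44 and 12.05 FPKM in PoxKu70 replicates 1 to 3. With a mean of 10.5 ± 1.49 FPKM (SD, n = 3) it was the most abundant transcript of the block in PoxKu70, where 32.1% of all listed genes were lower. In the mutant 96.4% of all listed genes were lower. POX_c04517 had 110, 160 and 236 FPKM in mutant replicates 1 to 3, against 2.79, 4.03 and 3.65 FPKM in PoxKu70 replicates 1 to 3, a 48.3-fold higher mean in the mutant. These 4 genes averaged at least 100 FPKM in the mutant, and they were also the 4 that averaged above 3 FPKM in PoxKu70, so the block was low but not silent there.

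Between and beside these 4 genes lay 3 of middling level in the mutant. POX_c04512 had 37.1, 50.5 and 62 FPKM in mutant replicates 1 to 3, against 1.07, 1.04 and 0.71 FPKM in PoxKu70 replicates 1 to 3. POX_c04515 had 46.6, 56.3 and 64.4 FPKM in mutant replicates 1 to 3, against 1.12, 0.98 and 1.07 FPKM in PoxKu70 replicates 1 to 3. POX_c04518 had 28.2, 43.2 and 56.2 FPKM in mutant replicates 1 to 3, against 0.46, 0.27 and 0.67 FPKM in PoxKu70 replicates 1 to 3. In none of the 3 did the strains overlap, and the mean ratios of mutant over PoxKu70 were 53.0, 52.8 and 91.1.

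The second part of the block, from POX_c04519 on, was rarer in the mutant. POX_c04519 had 7.48, 7.04 and 11.66 FPKM in mutant replicates 1 to 3, against 0.08, 0.13 and 0.11 FPKM in PoxKu70 replicates 1 to 3. POX_c04521 had 12.57, 16.72 and 18.44 FPKM in mutant replicates 1 to 3, against 0.84, 0.58 and 0.51 FPKM in PoxKu70 replicates 1 to 3. POX_c04522 had 10.77, 18.52 and 23.16 FPKM in mutant replicates 1 to 3, against 0.44, 0.26 and 0.22 FPKM in PoxKu70 replicates 1 to 3. Each of the 3 was below 1 FPKM in every PoxKu70 library and separated the strains without overlap, although their levels in the mutant were those of ordinary genes: 31.1% to 44% of all listed genes were lower. Values below 1 FPKM rest on few reads, so the ratios of 81.8 (POX_c04519), 24.7 (POX_c04521) and 57 (POX_c04522) have imprecise denominators.

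The gene between them, POX_c04520, stayed off. It was listed at 0 in mutant replicates 1 and 2 and at 0.08 FPKM in mutant replicate 3, and at 0 in all 3 PoxKu70 libraries. No fold is given for it. It is the only one of the 13 that did not separate the strains, with strongly differing genes directly before and after it. Across the 31 genes, 9 were below 1 FPKM in all 6 libraries, as were 11% of all 9822 listed genes, and 5 were listed at 0 in all 6, as were 6.18% of all listed genes. POX_c04520 was the sole such gene inside the block, 3 lay before the block and 5 after it.

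A stricter description of being switched on asked for less than 1 FPKM in all 3 PoxKu70 libraries and at least 10 FPKM in all 3 mutant libraries. Of the 31 genes, 3 met it, POX_c04518, POX_c04521 and POX_c04522, as did 0.316% of all listed genes. The more abundant genes of the block missed it through their PoxKu70 values of 1 FPKM or more. POX_c04511, POX_c04519, POX_c04520 and POX_c04523 missed it through mutant values below 10 FPKM. In PoxKu70, 8 of the 13 genes averaged below 1 FPKM and 7 were below it in every library.

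The order of the genes by level was similar in both strains. Spearman's rho between the mean level in the mutant and that in PoxKu70 was 0.902 over the 12 tested genes, which share their libraries and are not independent. The highest mean was 427 times the lowest in the mutant and 98.6 times in PoxKu70. The lowest mean in the mutant was 2.12 FPKM, at POX_c04511, and the next lowest was 8.6 FPKM, at POX_c04523. The wider spread in the mutant thus rests largely on POX_c04511, at the border of the block. In PoxKu70 the lowest mean was 0.107 FPKM, at POX_c04519, which rests on few reads. POX_c04513, POX_c04514 and POX_c04516 together made up 85.5% to 87.9% of the block sum in the mutant libraries and 73.8% to 78.7% in the PoxKu70 libraries. The shares of single genes differed. POX_c04516 took 26.6% to 37.4% of the sum in the mutant and 12.1% to 18.4% in PoxKu70. POX_c04514 took 20.4% to 23.5% in the mutant and 28.1% to 35.9% in PoxKu70, while POX_c04513 overlapped, at 28.3% to 35.4% in the mutant and 29.5% to 32.2% in PoxKu70.

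**Figure D2:**
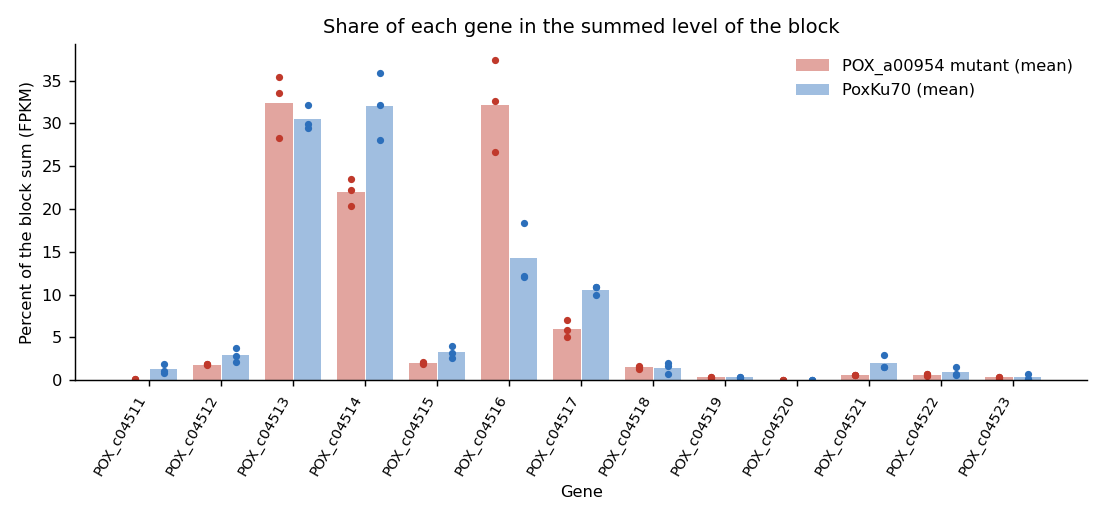
Percent of the summed FPKM of the block held by each of its 13 genes, with bars at the mean of a strain and 1 point per library (left of each pair the mutant, right PoxKu70). POX_c04516 averages 32.2% in the mutant and 14.2% in PoxKu70, and POX_c04514 averages 22.1% in the mutant and 32.1% in PoxKu70.

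Most genes of the block differed in the same direction between mutant replicates 1 and 3. The choice of the genes did not compare these libraries, but it was not free of their values. Most of the 12 tested genes reached the filter of 1 FPKM through their mutant values, and POX_c04511 did not reach it without mutant replicate 3. Of the 12 tested genes, 10 were highest in mutant replicate 3 and 9 were lowest in mutant replicate 1. Over all tested genes, 48.6% were highest in replicate 3 and 25.9% lowest in replicate 1. The median ratio of mutant replicate 3 over mutant replicate 1 was 1.6 in the block and 1.02 over all tested genes. Single ratios ran from 0.84 (POX_c04523) to 2.15 (POX_c04517 and POX_c04522), with POX_c04516 at 1.09. The genes share these libraries, so this is a description and was not tested, and POX_a00954 itself was also highest in mutant replicate 3.

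**Figure D3:**
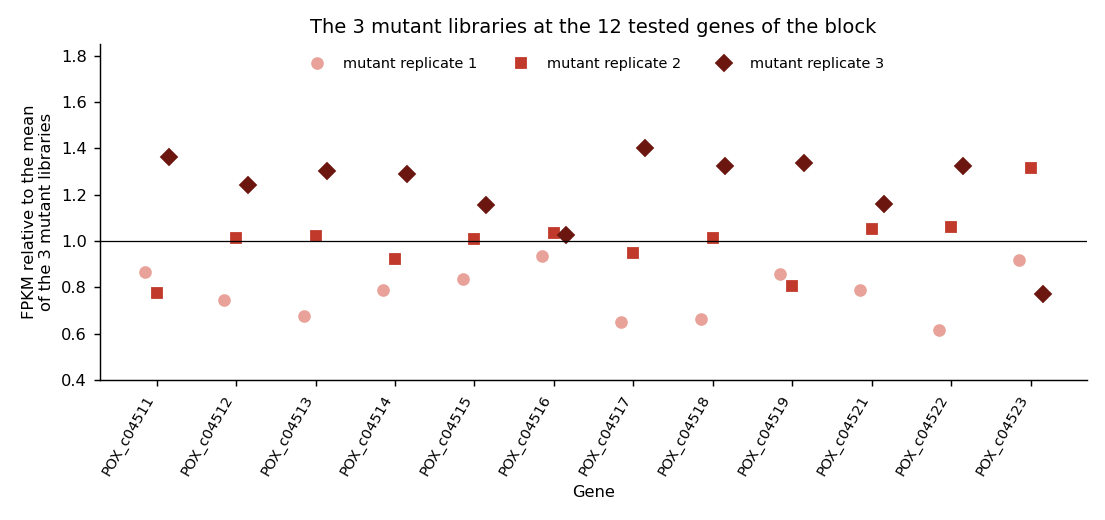
FPKM of each tested gene of the block in the 3 mutant libraries, divided by the mean of those 3 libraries, with 1 marker per library. Replicate 3 is the highest library at 10 of the 12 genes. POX_c04516 has its 3 libraries close together, from 0.938 to 1.04 of the mean, and POX_c04523 has replicate 3 lowest.

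The same mutant libraries differed in 2 other, longer runs of genes that were higher in the mutant. In the 22 genes from POX_c04232 to POX_c04253, all 22 were highest in mutant replicate 3 and lowest in mutant replicate 1, with a median ratio of 2.23 between those libraries. In the 16 genes from POX_a00747 to POX_a00762, all 16 were highest in mutant replicate 3 and 9 were lowest in mutant replicate 1, with a median ratio of 1.29. The PoxKu70 libraries also differed within blocks. Over all tested genes, 23.9%, 29.7% and 45.6% were highest in PoxKu70 replicates 1, 2 and 3, and 29.1% were lowest in replicate 1. The median ratio of PoxKu70 replicate 3 over replicate 1 was 1.04 over all tested genes. In POX_c04511 to POX_c04523, 5 of the 12 tested genes were highest in PoxKu70 replicate 1, 5 in replicate 2 and 2 in replicate 3. Of the same 12 genes, 6 were lowest in PoxKu70 replicate 1, and the median ratio of PoxKu70 replicate 3 over replicate 1 was 1.21. Most of these genes averaged below 1 FPKM in PoxKu70, where values rest on few reads. In POX_c04232 to POX_c04253, 16 of 22 were highest in PoxKu70 replicate 2. In POX_a00747 to POX_a00762, all 16 were lowest in PoxKu70 replicate 1 and 11 were highest in replicate 3, with a median ratio of 1.76 between those libraries. The levels in both strains set POX_a00747 to POX_a00762 apart from the other blocks. The sum per listed gene was 211 FPKM in the mutant and 2.53 FPKM in PoxKu70 for POX_c04511 to POX_c04523. It was 257 FPKM in the mutant and 5.52 FPKM in PoxKu70 for POX_c04232 to POX_c04253, and 3730 FPKM in the mutant and 353 FPKM in PoxKu70 for POX_a00747 to POX_a00762. These differences between blocks were not tested.

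The left border of the block fell between POX_c04509 and POX_c04512. POX_c04510, just outside, was listed at 0 in all 6 libraries, so it cannot place the border. POX_c04511, just inside, had 1.83, 1.64 and 2.88 FPKM in mutant replicates 1 to 3, against 0.54, 0.33 and 0.38 FPKM in PoxKu70 replicates 1 to 3. Its ratio of 5.08 and log2 difference of 1.12 (SE 0.27) were the smallest among the 12 tested genes, and the next gene, POX_c04512, differed by 4.69 (SE 0.21) on the same scale. No strand-marking step is described in the labels' protocols, and how reads were counted is not stated, so reads running over from a neighbouring gene cannot be told apart from a transcript of POX_c04511. POX_c04509, the nearest gene before the border with a clear level, had 30.75, 27.57 and 27.33 FPKM in mutant replicates 1 to 3, against 25.79, 27.61 and 20.44 FPKM in PoxKu70 replicates 1 to 3, and overlapped.

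The right border could not be placed as closely, because POX_c04524 to POX_c04528, directly after it, were below 1 FPKM in all 6 libraries. POX_c04523, the last gene inside, had 7.88, 11.3 and 6.62 FPKM in mutant replicates 1 to 3, against 0.04, 0.27 and 0.05 FPKM in PoxKu70 replicates 1 to 3. POX_c04524, just outside, had 0.62, 0.48 and 0.53 FPKM in mutant replicates 1 to 3, against 0.49, 0.2 and 0.19 FPKM in PoxKu70 replicates 1 to 3, and overlapped. POX_c04525, POX_c04526 and POX_c04527 were listed at 0 in all 6 libraries, and POX_c04528 did not exceed 0.24 FPKM in any. Within the mutant, the mean was 0.54 FPKM at POX_c04524 and 8.6 FPKM at POX_c04523, and no gene beyond that step had a level to compare until POX_c04529.

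POX_c04529 and POX_c04530, the first expressed genes after the block, were lower in the mutant. POX_c04529 had 44, 46.3 and 52.4 FPKM in mutant replicates 1 to 3, against 62.5, 57.6 and 74.8 FPKM in PoxKu70 replicates 1 to 3. POX_c04530 had 13.7, 12.6 and 21.7 FPKM in mutant replicates 1 to 3, against 36, 35.7 and 38.4 FPKM in PoxKu70 replicates 1 to 3, a log2 difference of -1.19 (SE 0.20). Neither overlapped between the strains. All 3 mutant libraries lay below all 3 PoxKu70 libraries at these 2 genes, as they did for 33.7% of all tested genes. The call of POX_c04529, whose log2 difference was -0.44 (SE 0.14), was lost without mutant replicate 1 or 2 or without PoxKu70 replicate 1 or 3.

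Before the block 1 gene stood out, POX_c04504. It had 86.3, 105 and 115 FPKM in mutant replicates 1 to 3, against 4.13, 3.7 and 2.81 FPKM in PoxKu70 replicates 1 to 3. Its mean was 102 ± 14.4 FPKM in the mutant and 3.55 ± 0.673 FPKM in PoxKu70 (SD, n = 3 each), a ratio of 28.7 and a log2 difference of 4.50 (SE 0.17), close to the median of the block. It is separated from the block by 6 genes, POX_c04505 to POX_c04510. Of these, POX_c04507 and POX_c04510 were listed at 0 in all 6 libraries and were not tested. None of the others was called higher in the mutant, against 30.5% of all tested genes. Among the 76 listed genes outside the block from POX_c04470 to POX_c04560, POX_c04504 was the only one with a log2 difference of at least 2. The next highest was POX_c04470, at 1.94. Tested were 27 of 29 genes up to POX_c04499, 10 of the 18 beside the block and 15 of 29 from POX_c04531. Genes below 1 FPKM in all 6 libraries cannot reach 2 on this scale. POX_c04504 also exceeded a difference of 3, as did 2.45% of all tested genes, so nothing is read from its being the only one.

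The genes from POX_c04505 to POX_c04510 had moderate or no expression. POX_c04505 had 10.77, 13.57 and 15.63 FPKM in mutant replicates 1 to 3, against 19.34, 17.92 and 20.26 FPKM in PoxKu70 replicates 1 to 3. It was called lower, with a log2 difference of -0.51 (SE 0.16), but not without mutant replicate 1 or 2, without PoxKu70 replicate 1 or 3, or with quantile scaling. POX_c04506, POX_c04508 and POX_c04509 overlapped between the strains, with log2 differences of 0.15, 0.12 and 0.22 that turned to -0.20, -0.20 and -0.15 under TPM scaling. POX_c04507 and POX_c04510 were listed at 0 in all 6 libraries.

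At the far left, POX_c04500 had 35.4, 27.5 and 22.6 FPKM in mutant replicates 1 to 3, against 56, 53.8 and 67.2 FPKM in PoxKu70 replicates 1 to 3, and was called lower. POX_c04502 averaged 31.9 ± 4.11 FPKM in the mutant and 38.6 ± 0.692 FPKM in PoxKu70 (SD, n = 3 each) and was not called, although under TPM scaling it was called lower at -0.64. POX_c04501 was rare, at 4.29, 1.05 and 2.5 FPKM in mutant replicates 1 to 3, against 0, 0.75 and 0 FPKM in PoxKu70 replicates 1 to 3. It was called higher, but without mutant replicate 1 its mean fell below 1 FPKM and it was not tested. POX_c04503 was listed at 0.66 FPKM in mutant replicate 1 and at 0 in the other 5 libraries.

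In all, 10 of the 18 genes on either side were tested. By limma, 2 were called higher (POX_c04501 and POX_c04504), 4 lower (POX_c04500, POX_c04505, POX_c04529 and POX_c04530) and 4 neither, beside 30.5% higher and 30% lower over all tested genes. Further out, both directions were found. From POX_c04470 to POX_c04499, 27 of 29 listed genes were tested, 7 were called higher and 9 lower, with a median log2 difference of -0.19 and a range of -2.30 to 1.94. From POX_c04531 to POX_c04560, 15 of 29 were tested, 3 were called higher and 8 lower, with a median of -0.57 and a range of -3.47 to 1.11 among tested genes. Over the 1057 tested genes of the same ID letter, 321 were called in each direction.

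**Figure D4:**
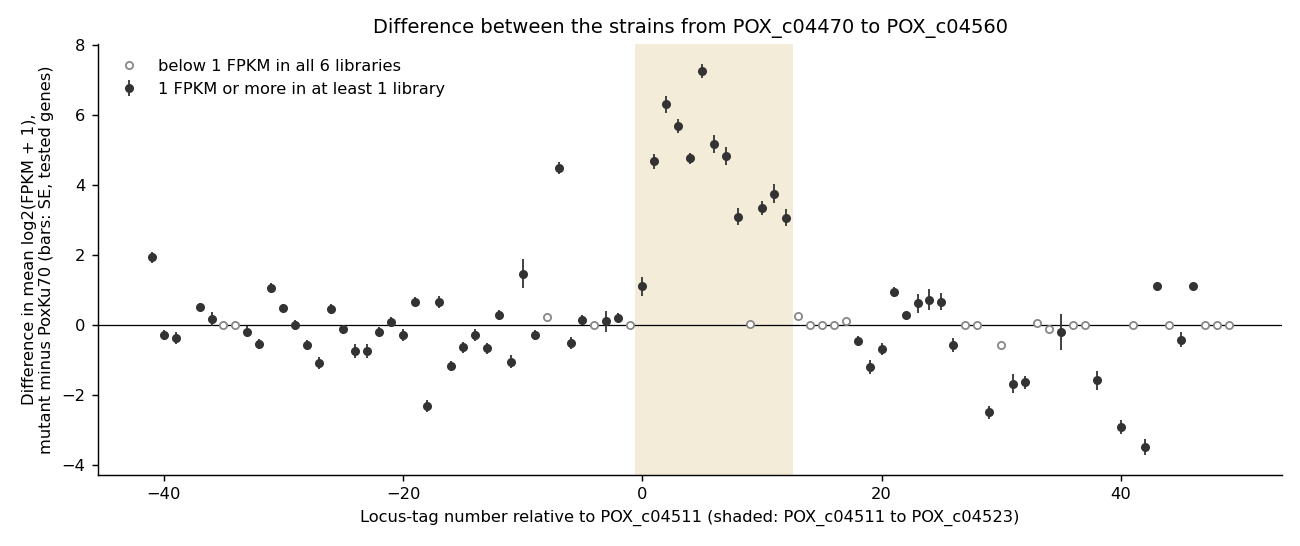
Difference in mean log2(FPKM + 1), mutant minus PoxKu70, for the listed genes from POX_c04470 to POX_c04560 by their number relative to POX_c04511, with SE bars for tested genes and open points for genes below 1 FPKM in all 6 libraries. The shaded block holds 11 differences of 3 or more. POX_c04504, to its left at 4.50, is the only gene outside it above 2.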

How the data were processed

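Each library has its own file of FPKM values, computed and deposited by the authors with 2 decimals, per the file headers. The submitters' processing notes name bcl2fastq and HISAT2. The counter, the annotation and the genome build are not stated in the labels or headers. Per the labels' protocols, poly(A) RNA was enriched and random-primed. No coordinates are given, because the build is not stated. Of the 9822 IDs, 9718 matched RefSeq locus tags (assembly ASM172317v3), which were used for neighbours only.

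A limma model (version 3.58.1, R 4.3.3) with an intensity trend and genotype as its term was fitted to log2(FPKM + 1) of the 6 libraries, for genes whose mean reached 1 FPKM, with Benjamini-Hochberg adjustment over all of them. The script was tested on simulated data. Changes were planted there only in genes more abundant in PoxKu70 than most genes of the block. Relative depth was taken from the most frequent ratio of low values between libraries (27 to 62 values each), so read numbers are unknown and no counting interval is given. The genes, the comparison blocks and the definitions of on and off were chosen with earlier results of these data known. Every gene from POX_c04500 to POX_c04530 is named. Promoter and protein sequences were not analysed here. Figures were drawn with matplotlib 3.10.9.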

Additional observations from a re-analysis of the deposited data

How the results depend on the processing

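Under the 16 alternative fits and scalings, the 12 tested genes of the block stayed higher in the mutant and called, which their choice largely fixes, except that POX_c04511 was not tested without mutant replicate 3 and that, with a minimum mean of 5 FPKM, 9 of the 12 were left. Leaving out single libraries gave 4341 to 5119 changed genes. A replicate block gave 5103 (5107 without it), and with that block no gene from POX_c04500 to POX_c04530 changed its call. Whether the replicate numbers pair the libraries could not be told from the values. The deviations from the strain means had correlations of -0.064, -0.0029 and 0.15 for numbers 1, 2 and 3. The best match was at the same number for 2 of 6 libraries. With so few libraries this check cannot show whether libraries of the same number shared a culture or batch. The ratio of block sums was 64.1 under TPM scaling. Genes on either side called higher numbered 1 with a minimum mean of 5 FPKM, by construction, and 1 to 2 without single libraries. Those called lower numbered 2 to 4 without single libraries, POX_c04505 and POX_c04529 being lost, and 5 under TPM scaling, with POX_c04502 added. Genes switched on numbered 2 under TPM scaling. POX_c04506, POX_c04508 and POX_c04509 reversed under TPM scaling to -0.20, -0.20 and -0.15, and POX_c04508 ran from -0.13 (without mutant replicate 2) to 0.47 without single libraries. The cause of these changes was not tested, beyond the shift of all genes under TPM scaling given above. Counts of genes on and off under other scalings, and the sum without POX_c04520, were added after seeing the data. Depth limits values below 1 FPKM, on which the ratios of 7 of the 12 tested genes rest.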

Other observations

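Stretches of adjoining listed genes that each differed by at least 3 on the log2(FPKM + 1) scale, mutant minus PoxKu70, were counted over all chromosomes, a count chosen after the values were seen. There were 11 stretches of at least 3 genes, 4 of at least 5 and 2 of at least 8. POX_c04512 to POX_c04519, with 8 genes, was the second longest after POX_c04237 to POX_c04251, with 15. POX_c04521 to POX_c04523, beyond POX_c04520, was a stretch of 3. The summed mean level of the 8 genes was 2702 FPKM in the mutant and 31.5 FPKM in PoxKu70, and that of the 15 genes was 4400 FPKM in the mutant and 61.7 FPKM in PoxKu70.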
